A study of Homo sapiens with 12 samples.

Results

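The heat shock protein transcripts of HEK293T cells, an established human embryonic kidney line, were followed over a time course with GSK-A1, an inhibitor of the lipid kinase PI4KA. A list of 10 Ensembl transcript IDs defined the set: HSPA1A (ENST00000375651), HSPA1B (ENST00000375650), HSPA8 (ENST00000534624), HSPH1 (ENST00000320027), DNAJB1 (ENST00000254322), HSP90AA1 (ENST00000216281), HSP90AB1 (ENST00000371646), HSPD1 (ENST00000388968), HSPE1 (ENST00000233893) and HSPB1 (ENST00000248553). Rows with these IDs were found for 7 of the 10 among 18338 transcripts listed in any library. The IDs given for HSPA8, HSP90AB1 and HSPD1 were listed in none of the 12 libraries, so those 3 genes were not analysed here.

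The study sequenced footprints of translating ribosomes (RPF, for ribosome-protected fragment) and polyadenylated mRNA at 0, 60 and 360 min, with 2 libraries per assay and time. All 12 libraries came from cells labelled WT in genotype and GSK-A1 in treatment, the 0 min libraries included. No vehicle-treated libraries at 60 or 360 min are among those analysed here, so the inhibitor and the time in culture cannot be told apart. The labels do not say that replicates came from separate cultures, so p-values measure only the spread between these libraries, which may be technical.

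Heat shock proteins are molecular chaperones that bind unfolded or partly folded proteins and keep them from aggregating. In the cytosol, Hsp70 proteins take up clients delivered by J-domain co-chaperones and pass part of them to Hsp90, while inside mitochondria the chaperonin Hsp60 folds proteins in a chamber closed by Hsp10. Protein-damaging stress releases the transcription factor HSF1, which binds inverted repeats of the motif GAA, called heat shock elements, in the promoters of the inducible members.

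RefSeq promoter windows (GRCh38.p14, from 250 bases before to 50 bases after a gene's start) were matched by symbol for 7 of the 7 genes with rows, giving 10 windows. The windows were searched for a pair of inverted heat shock units, GAANNTTC or TTCNNGAA, each of which reads the same on both strands. At least 1 match was found in 6 of the 10 windows, belonging to 5 of the 7 symbols, against 13.5% of 35116 windows in the table (6.77% for GAANNTTC and 7.74% for TTCNNGAA). The matches upstream of a start are given here for the 5 symbols that held such a pair in at least 1 window. Capitals mark the matched bases, and overlapping matches run together.
HSPA1A, chr6:31815417-31815464, plus strand: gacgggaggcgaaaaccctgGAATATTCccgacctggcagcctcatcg
HSPA1B, chr6:31827613-31827660, plus strand: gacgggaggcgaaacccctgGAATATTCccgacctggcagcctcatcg
DNAJB1, chr19:14518417-14518494, minus strand: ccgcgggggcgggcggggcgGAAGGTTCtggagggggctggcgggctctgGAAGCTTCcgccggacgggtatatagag
HSP90AA1, chr14:102087085-102087152, minus strand: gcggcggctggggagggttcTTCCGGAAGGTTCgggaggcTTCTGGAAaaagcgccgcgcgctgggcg
HSPB1, chr7:76302471-76302518, plus strand: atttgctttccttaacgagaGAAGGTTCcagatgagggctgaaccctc

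HSPA1A and HSPA1B held the same match, GAATATTC, at positions -106 to -99 and -105 to -98 from their starts. The DNAJB1 stretch held 2 matches and the HSP90AA1 stretch held 3, of which 2 overlapped to form a run of 3 alternating units, a form present in 0.49% of all windows. HSPH1 and HSPE1 held no match, which says only that these letters are absent from this window. DNAJB1 has 3 windows and HSP90AA1 has 2, and for each gene 1 of them held no match. Which start a transcript used is not given in the sources used here. A match is a description of the sequence and not a measured binding site.

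Library totals ran from 429026 to 1165740 counts. The 7 transcripts with rows took 0.135% to 0.226% of the counts of an RPF library and 0.0765% to 0.169% of those of an mRNA library. Levels below are counts per 1000000 (CPM) scaled within each assay, given for replicate 1 and then replicate 2. The count tables give no transcript lengths, so levels of different genes were not compared. Exact Poisson 95% intervals, which cover counting error only, were apart between the 2 replicates in 8 of 18 RPF and 9 of 18 mRNA combinations of gene and time, with HSPA1A left out.

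**Figure D1:**
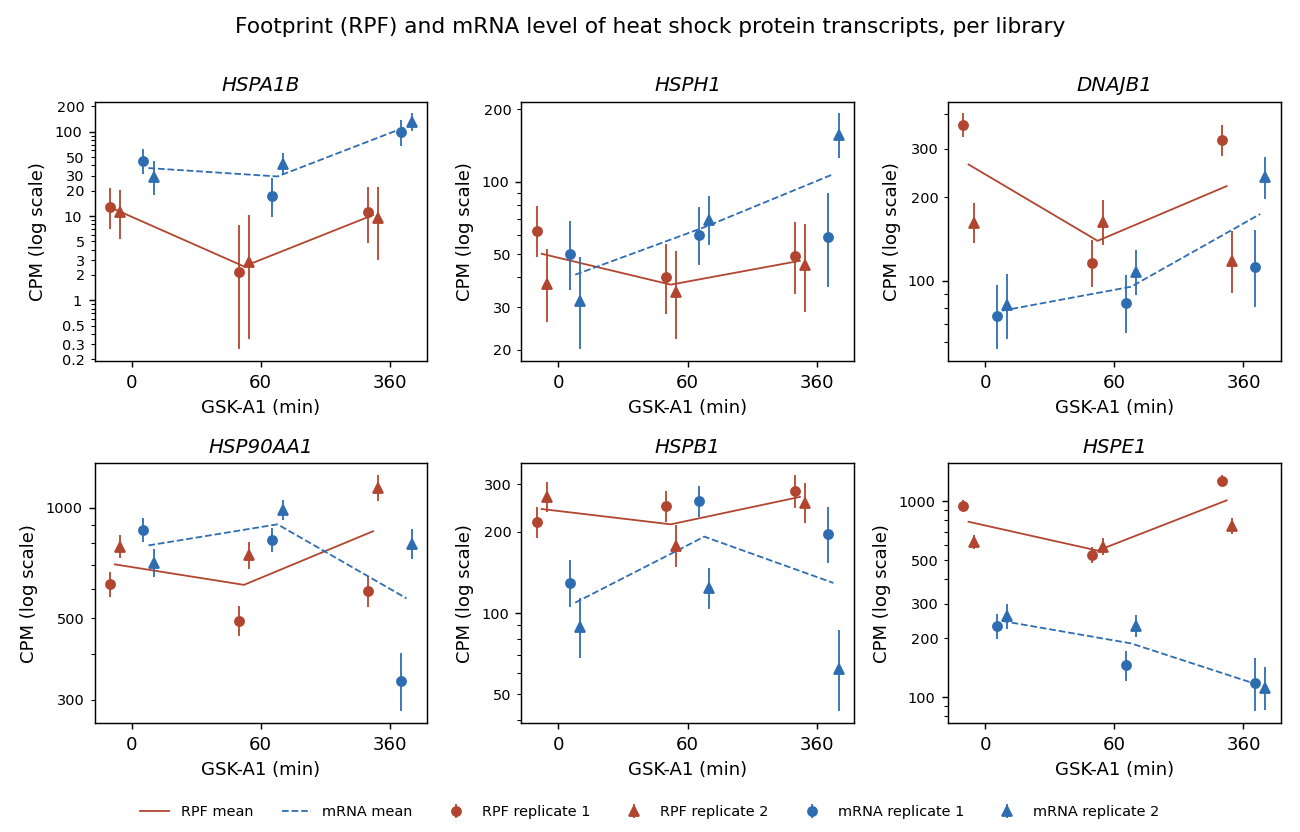
Level of 6 heat shock protein transcripts at 0, 60 and 360 min of GSK-A1 (x axis) in CPM on a log scale (y axis), with RPF in red and mRNA in blue. Points are single libraries with exact Poisson 95% intervals and lines join the means of 2 replicates. The mean mRNA of HSPA1B, HSPH1 and DNAJB1 was highest at 360 min, where that of HSPE1 was lowest. The lower HSPH1 mRNA library at 360 min was below both 60 min ones.

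At an adjusted p of 0.05, no heat shock protein transcript was called in RPF (5 members tested), in mRNA (6 tested) or in the RPF-to-mRNA ratio (5 tested), at 60 against 0 min, 360 against 0 min or 360 against 60 min (edgeR's quasi-likelihood test with Benjamini-Hochberg adjustment). The background was 0% in each of the 9 comparisons, since none of 9653 transcripts in RPF, 9693 in mRNA or 8632 in the ratio was called either. Of the members tested by edgeR, DESeq2 called 0 of those to which it gave an adjusted p, and 0 to 60 transcripts in all per comparison (28 in mRNA at 360 against 0 min and 60 at 360 against 60 min). In mRNA at 360 against 0 min it gave HSPA1B, HSPH1 and DNAJB1 no adjusted p, and in RPF and the ratio at 360 against 60 min it gave HSPH1 none. In the order of comparisons above, an unadjusted p under 0.05 from edgeR's test was reached by 0, 0 and 0 of 5 members in RPF (2.31%, 3.91% and 7.8% of all transcripts), by 0, 4 and 1 of 6 in mRNA (1.37%, 8.92% and 10.3%) and by 0, 2 and 1 of 5 in the ratio (1.75%, 5.66% and 4.69%).

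The inducible cytosolic Hsp70 is encoded by HSPA1A and HSPA1B, neighbouring genes with nearly identical transcripts. How the authors assigned reads that fit both is not given in the sources used here, so the split between the 2 rows is uncertain. HSPA1A was close to absent from the counts. Its mRNA had 2 and 4 counts at 60 min (2.31 and 3.70 CPM) and 0 counts at 0 and 360 min, where 3 counts would have been 3.85 and 4.37 CPM at 0 min and 8.42 and 5.33 CPM at 360 min. Its RPF row held 1 count in 1 library, the second replicate at 360 min, and 0 in the other 5, where 3 counts would have been 2.77 to 4.33 CPM.

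HSPA1B carried nearly all counts of the pair. Its mRNA level was 45.0 and 29.1 CPM at 0 min, 17.3 and 41.6 CPM at 60 min, and 98.2 and 131 CPM at 360 min. Both 360 min libraries lay above all 4 earlier ones, while the 60 min libraries overlapped those at 0 min. From 0 to 360 min the mRNA mean went from 37.0 ± 11.2 to 115 ± 23.5 CPM (SD, n = 2), a log2 difference of 1.63 (SE 0.50, 95% interval 0.51 to 2.75, edgeR adjusted p = 0.558). Against 60 min the log2 difference was 1.95 (SE 0.50, 95% interval 0.83 to 3.07, edgeR adjusted p = 0.327). Only without the filter on low counts was this second difference past the threshold (log2 difference 1.93, edgeR adjusted p = 0.0367). With the counts of HSPA1A and HSPA1B summed, the mRNA log2 differences were 1.63 at 360 against 0 min and 1.81 at 360 against 60 min.

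Footprints on HSPA1B were few. Like its mRNA, they were higher at 360 than at 60 min. Unlike its mRNA, they were not higher at 360 than at 0 min. The row had 14 and 10 counts at 0 min (12.9 and 11.1 CPM), 2 and 2 at 60 min (2.16 and 2.89 CPM), and 8 and 5 at 360 min (11.2 and 9.35 CPM). The 60 min libraries were below all 4 others, and those at 0 and 360 min overlapped. The row did not pass the filter on low counts, so it was not tested with the other transcripts. Summed over replicates, the RPF level at 60 min was 0.205 times that at 0 min (exact 95% interval 0.0517 to 0.596), that at 360 min was 4.2 times that at 60 min (1.30 to 17.7), and that at 360 min was 0.861 times that at 0 min (0.403 to 1.76). These intervals cover counting error only. Without the filter, edgeR gave a log2 difference of -2.25 at 60 against 0 min (unadjusted p = 0.0105, adjusted p = 1). At 360 against 60 min it gave 1.93 (unadjusted p = 0.0385, adjusted p = 0.713).

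HSPH1, a large Hsp70 relative of the Hsp110 family that exchanges nucleotide on Hsp70, had more mRNA at later times in these libraries. Its mRNA level was 50.1 and 32.0 CPM at 0 min, 60.1 and 69.4 CPM at 60 min, and 58.9 and 156 CPM at 360 min. The later libraries were all above both 0 min ones, but the 360 min replicates stood 2.65-fold apart and the lower of them was below both 60 min libraries. At 360 against 0 min the mRNA log2 difference was 1.40 (SE 0.52, 95% interval 0.24 to 2.57, edgeR adjusted p = 0.558). Replicate 2 at 360 min set the size of that difference: without it the value was 0.54, and without replicate 1 it was 1.93.

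HSPH1 footprints were 62.7 and 37.7 CPM at 0 min, 40.0 and 34.6 CPM at 60 min, and 48.9 and 44.9 CPM at 360 min. The RPF libraries of 0 min overlapped those of both later times. The RPF log2 differences from 0 min were -0.43 (SE 0.41) at 60 min and -0.10 (SE 0.41, 95% interval -0.96 to 0.76) at 360 min. The ratio of RPF to mRNA level (each mean of 2 replicates) was 1.22 at 0 min, 0.577 at 60 min and 0.436 at 360 min. The 4 possible pairings of replicates gave 0.751 to 1.96, 0.499 to 0.667 and 0.287 to 0.831, so 0 and 360 min overlapped.

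DNAJB1, the Hsp40 J-domain co-chaperone that stimulates the ATPase of Hsp70, had a similar course in mRNA. The mRNA level was 74.5 and 81.6 CPM at 0 min, 83.1 and 107 CPM at 60 min, and 112 and 236 CPM at 360 min. Its 3 pairs of replicates did not overlap, with the higher 60 min library just below the lower one at 360 min. The mRNA log2 difference at 360 against 0 min was 1.17 (SE 0.45, 95% interval 0.15 to 2.19, edgeR adjusted p = 0.558), and it was 0.56 without replicate 2 at 360 min and 1.62 without replicate 1.

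Footprints on DNAJB1 were 364 and 162 CPM at 0 min, 116 and 163 CPM at 60 min, and 322 and 118 CPM at 360 min. Replicates differed 2.25-fold at 0 min and 2.73-fold at 360 min, more than the means of the 3 times did. The RPF log2 difference at 60 against 0 min was -0.92 (SE 0.50, 95% interval -1.98 to 0.14), the lowest of the members and at the 3.21st percentile of all transcripts tested. Without replicate 1 at 0 min it was -0.21. At 360 against 0 min the RPF difference was -0.25 (SE 0.49), and leaving out single libraries moved it from -1.20 to 0.45. The ratio of RPF to mRNA level was 3.37 at 0 min, 1.46 at 60 min and 1.26 at 360 min. The 4 possible pairings of replicates gave 1.98 to 4.89, 1.08 to 1.96 and 0.498 to 2.87, so 0 and 360 min overlapped.

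HSP90AA1 encodes the stress-inducible cytosolic Hsp90, which matures kinases and hormone receptors. Its mRNA level was 871 and 708 CPM at 0 min, 816 and 986 CPM at 60 min, and 337 and 796 CPM at 360 min. The 360 min mRNA replicates stood 2.36-fold apart, and the higher one lay within the range of 0 min. Its RPF level was 618 and 784 CPM at 0 min, 491 and 742 CPM at 60 min, and 593 and 1133 CPM at 360 min, with overlap among all 3 times. The log2 differences at 360 against 0 min were -0.48 (SE 0.52) in mRNA and 0.30 (SE 0.54) in RPF, each with an interval that includes 0 (-1.66 to 0.70 and -0.84 to 1.44). Its mRNA value at 360 min lay on the other side of 0 from those of HSPA1B, HSPH1 and DNAJB1, and that difference between genes was not tested.

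HSPB1 encodes the small heat shock protein Hsp27, which holds unfolded proteins without using ATP. Its mRNA level was 130 and 88.8 CPM at 0 min, 260 and 124 CPM at 60 min, and 196 and 62.2 CPM at 360 min. Replicate 1 was above replicate 2 at every time, 3.16-fold at 360 min, and all times overlapped. Its footprints were steadier, at 217 and 269 CPM at 0 min, 249 and 177 CPM at 60 min, and 282 and 256 CPM at 360 min. The log2 difference at 360 against 0 min was 0.22 (SE 0.60, 95% interval -1.12 to 1.57) in mRNA and 0.15 (SE 0.40, -0.69 to 0.99) in RPF.

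HSPE1, the Hsp10 lid of the mitochondrial chaperonin, was the only mitochondrial member with values, and its mRNA was lowest at 360 min. Its mRNA level was 231 and 259 CPM at 0 min, 146 and 231 CPM at 60 min, and 118 and 112 CPM at 360 min. Both 360 min libraries lay below all 4 earlier ones and 1.05-fold apart, while the higher 60 min library and the lower 0 min library were equal to 3 digits. The mRNA log2 difference at 360 against 0 min was -1.09 (SE 0.42, 95% interval -2.03 to -0.16, edgeR adjusted p = 0.558). Leaving out each library of these times in turn kept it between -1.13 and -1.02, the narrowest such range among the 6 members in this comparison.

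In their means, HSPE1 footprints and mRNA were both lower at 60 than at 0 min and parted at 360 min. The RPF level was 952 and 623 CPM at 0 min, 533 and 589 CPM at 60 min, and 1277 and 750 CPM at 360 min. Both 60 min libraries were below the other 4, and those at 0 and 360 min overlapped. The RPF log2 difference at 60 against 0 min was -0.49 (SE 0.54, 95% interval -1.63 to 0.65). It was 0.36 (SE 0.54) at 360 against 0 min and 0.85 (SE 0.54, 95% interval -0.29 to 2.00) at 360 against 60 min. Without RPF replicate 1 at 360 min these became -0.11 at 360 against 0 min and 0.38 at 360 against 60 min. The ratio of RPF to mRNA level was 3.21 at 0 min, 2.98 at 60 min and 8.82 at 360 min, and the 4 possible pairings of replicates gave 2.40 to 4.12, 2.31 to 4.05 and 6.36 to 11.4.

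**Figure D2:**
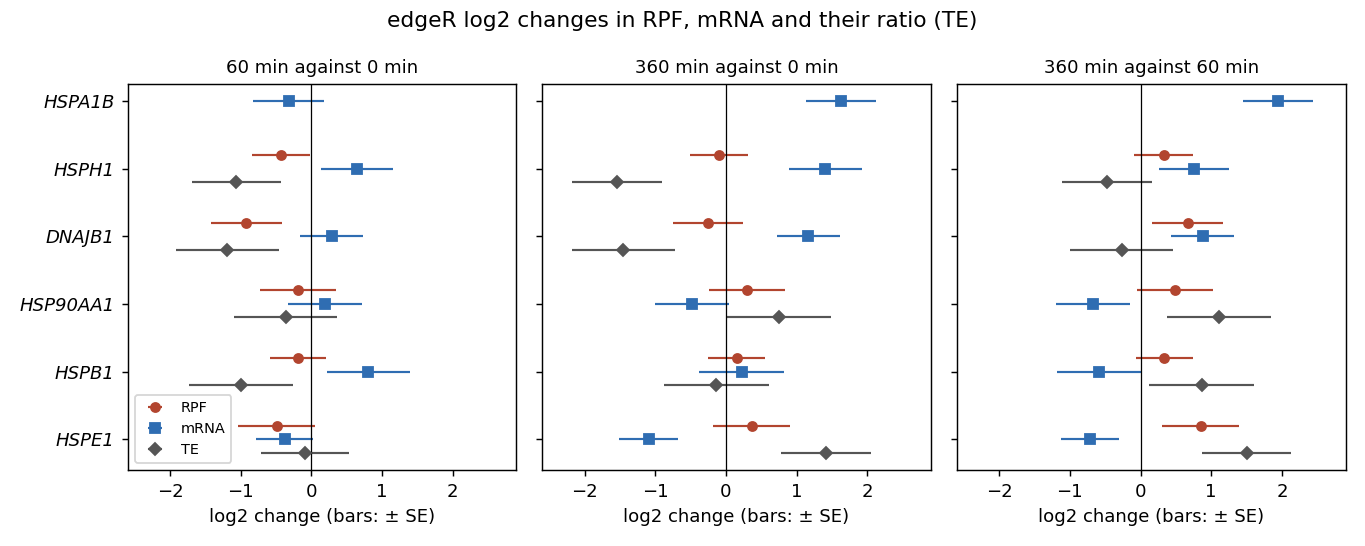
Log2 difference (x axis) between times for 6 heat shock protein transcripts (y axis) in RPF, mRNA and the RPF-to-mRNA ratio (TE), from edgeR fits with bars of 1 SE. At 360 against 0 min the mRNA points of HSPA1B, HSPH1 and DNAJB1 lie at 1.63, 1.40 and 1.17 and that of HSPE1 at -1.09, while all RPF points lie between -0.25 and 0.36; HSPA1B was not tested in RPF or TE.

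Across the set, mRNA at 360 against 0 min was the comparison in which most members had an unadjusted p under 0.05, and none passed the adjusted threshold. Of the 6 members tested, 4 were higher and 2 lower, with a median log2 difference of 0.69 against -0.03 over all 9693 transcripts, of which 48.2% were higher. The unadjusted edgeR p was under 0.05 for 4 of the 6 (HSPA1B 0.00922, HSPH1 0.0230, HSPE1 0.0267 and DNAJB1 0.0287), where 8.92% of all transcripts had such a p, and the smallest adjusted p of any transcript was 0.558. Replicates did not overlap and were higher at 360 min for 3 members, against 19.8% of all transcripts, and lower for 1 (HSPE1), against 19.1%. HSPA1B, HSPH1 and DNAJB1 lay at the 98.3rd, 97.2nd and 95th percentile of the log2 differences and HSPE1 at the 10th. The members were chosen with earlier results of these data known, and they share the same libraries. Their counts beside the shares of all transcripts are thus a description and not a test of the set. At 360 min the mRNA replicates of HSPH1, DNAJB1, HSP90AA1 and HSPB1 stood 2.11- to 3.16-fold apart, and the first library was the shallowest of the 12 (429026 counts); the part of depth in these differences was not tested.

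**Figure D3:**
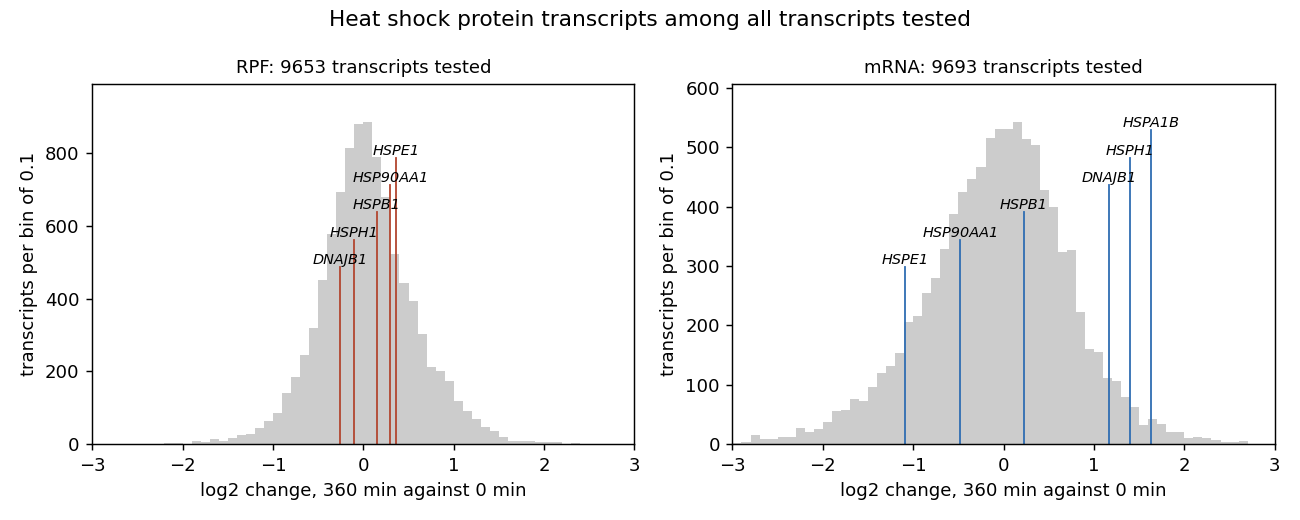
Histograms of the log2 difference at 360 against 0 min (x axis, bins of 0.1) over all transcripts tested (y axis, transcripts per bin), for RPF on the left and mRNA on the right, with lines at the heat shock protein transcripts. In mRNA, HSPA1B, HSPH1 and DNAJB1 sit in the upper tail and HSPE1 in the lower part, while in RPF the 5 members tested sit near the centre; line heights are staggered for legibility and carry no value.

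At 60 against 0 min no mRNA difference passed the test, and the highest were those of HSPB1 and HSPH1, at the 96.4th and 93.7th percentile of all transcripts. The HSPB1 log2 difference was 0.20 without replicate 1 at 60 min, and that of HSPH1 was 0.36 without replicate 2 at 0 min. The median log2 difference of the 6 members was 0.24 against -0.02 over all transcripts, with 4 higher and 2 lower and a range from -0.38 (HSPE1) to 0.81 (HSPB1). Of all transcripts, 48.3% were higher. No member had an unadjusted edgeR p under 0.05, against 1.37% of all transcripts. Replicates of 2 members were apart and higher (HSPH1 and DNAJB1), against 13.4% of all, and those of 1 were apart and lower (HSPE1, whose nearest libraries were equal to 3 digits), against 12.3%. At 360 against 60 min, 3 members were higher and 3 lower, and 47.7% of all transcripts were higher. HSPA1B was the 1 member with an unadjusted edgeR p under 0.05 (0.00337), against 10.3% of all. Replicates were apart and higher for HSPA1B and DNAJB1, against 20.7% of all, and apart and lower for HSP90AA1 and HSPE1, against 19.6%.

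In footprints, all 5 members tested were lower at 60 than at 0 min and higher at 360 than at 60 min, and none passed the test. Of all transcripts, 49.0% were higher at 60 than at 0 min and 53.1% were higher at 360 than at 60 min. Leaving out 1 library turned the direction at 60 against 0 min for HSPH1 (without replicate 1 at 0 min, to 0.000106), HSP90AA1 (without replicate 1 at 60 min or replicate 2 at 0 min, to 0.0787 and 0.0101) and HSPB1 (without replicate 2 at 60 min, to 0.0493). It also turned the direction at 360 against 60 min for DNAJB1 (without replicate 1 at 360 min, to -0.28) and HSP90AA1 (without replicate 2 at 360 min, to -0.0642). The median log2 difference at 60 against 0 min was -0.43 against -0.01 over all transcripts, and none of the 5 had an unadjusted edgeR p under 0.05, against 2.31% of all. HSPE1 was the 1 member whose replicates were apart and lower at 60 min, against 16% of all. From 60 to 360 min the median was 0.48 against 0.04, none had an unadjusted edgeR p under 0.05 (7.8% of all), and HSPH1, HSPB1 and HSPE1 had replicates apart and higher, against 17.5% of all. These comparisons share the 60 min libraries, so a low 60 min value enters both with opposite sign. Between the ends of the course, 3 members were higher and 2 lower at 360 than at 0 min, where 52.1% of all transcripts were higher. The median was 0.15 against 0.02, with no overlap-free pair and no unadjusted edgeR p under 0.05 (3.91% of all).

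The ratio of RPF to mRNA level, often called translational efficiency, was compared between times as the interaction of assay and time over all 12 libraries. At 360 against 0 min it was lower for HSPH1, by a log2 difference of -1.54 (SE 0.64, 95% interval -2.89 to -0.18), and for DNAJB1, by -1.45 (SE 0.73, -3.02 to 0.11). It was higher for HSPE1, by 1.41 (SE 0.63, 0.06 to 2.77). The unadjusted edgeR p was under 0.05 for 2 of the 5 members tested (HSPH1 0.0295 and HSPE1 0.0417), against 5.66% of all transcripts, and the adjusted p was 0.858 for both. HSP90AA1 (0.75, SE 0.73) and HSPB1 (-0.14, SE 0.74) had intervals that include 0. Leaving out single libraries moved the HSPH1 value between -2.02 and -0.71, the DNAJB1 value between -2.39 and -0.76 and the HSPE1 value between 0.95 and 1.76, with the lowest HSPE1 value found without RPF replicate 1 at 360 min.

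At 60 against 0 min the ratio of all 5 members was lower, from -0.09 for HSPE1 to -1.19 for DNAJB1. The median log2 difference was -1.0 against 0.02 over all transcripts, of which 51.2% were higher. The HSPE1 value turned to 0.24 without RPF replicate 1 at 0 min and to 0.23 without mRNA replicate 2 at 60 min. None had an unadjusted edgeR p under 0.05, against 1.75% of all. At 360 against 60 min the ratio was higher for HSPE1 (1.5, SE 0.63), HSP90AA1 (1.11, SE 0.74) and HSPB1 (0.86, SE 0.74) and lower for HSPH1 (-0.47, SE 0.63) and DNAJB1 (-0.26, SE 0.73). Of these, only HSPE1 had an unadjusted edgeR p under 0.05 (0.0322, adjusted p = 0.948), against 4.69% of all.

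**Figure D4:**
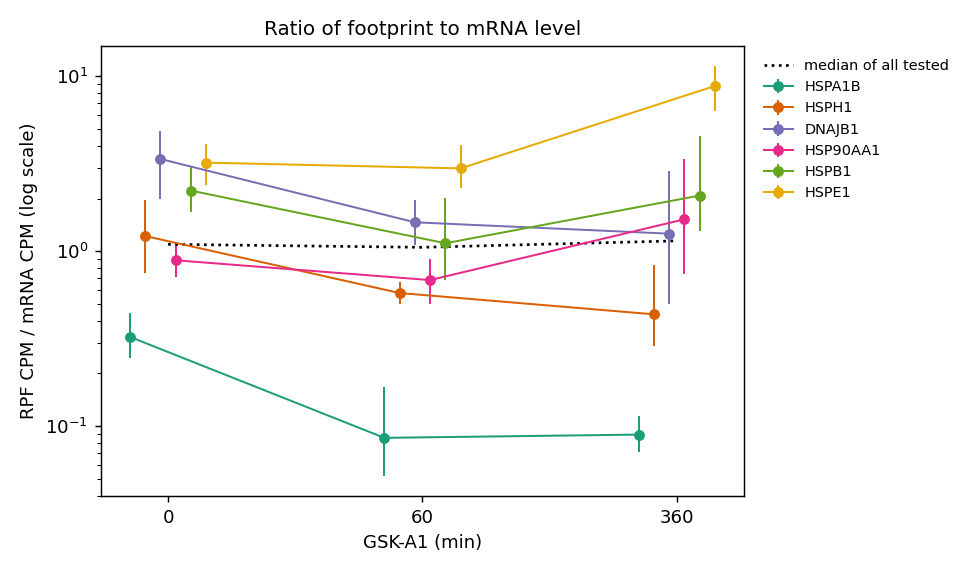
Ratio of mean RPF to mean mRNA level (y axis, log scale) at 0, 60 and 360 min of GSK-A1 (x axis) for 6 heat shock protein transcripts, with bars from the lowest to the highest of the 4 pairings of replicates and a dotted line at the median of 8632 transcripts. HSPE1 was at 8.82 at 360 min, while HSPH1 went from 1.22 at 0 min to 0.436 at 360 min, with overlapping bars. The HSPA1B points rest on 2 to 14 footprint counts per library.

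Set against 8632 transcripts, the RPF-to-mRNA ratio of HSPE1 was at the 95th percentile at 0 min, the 92.6th at 60 min and the 98.7th at 360 min. DNAJB1 was at the 95.5th percentile at 0 min and the 54.8th at 360 min, and HSPH1 was at the 56.6th and the 8.86th. For both genes the pairings of replicates at 0 and 360 min overlapped. HSP90AA1 was below the median ratio of 1.1 at 0 min (0.888, the 38.2nd percentile) and above the median of 1.15 at 360 min (1.52, the 64.3rd percentile), with pairings from 0.745 to 3.36. HSPB1 was above the median at every time (2.22, 1.11 and 2.08). HSPA1B had the lowest ratios of the set, 0.324 at 0 min, 0.0857 at 60 min and 0.0894 at 360 min, and these share the uncertain split of reads with HSPA1A. Which part of a transcript the counts cover is not given in the sources used here, and the share of a transcript that is coding differs between genes, so ranks of the ratio across genes are a description.

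Members were also compared by their course over the 6 libraries of an assay, as Pearson's r of log2 CPM. In mRNA the highest value was between HSPH1 and DNAJB1 (r = 0.908), with 1.08% of other transcripts closer to HSPH1. HSPA1B was less close to DNAJB1 (r = 0.789, with 7.68% of other transcripts closer to HSPA1B) and to HSPH1 (r = 0.652, with 14.4% closer), and HSPE1 ran against all 3 (r from -0.69 to -0.58). In RPF the highest values were DNAJB1 with HSPE1 (r = 0.820), HSPH1 with HSPE1 (r = 0.734) and HSPH1 with DNAJB1 (r = 0.734), with 4.31%, 6.9% and 6.95% of other transcripts closer to the first of each pair. The r of HSPE1 with HSPH1 and DNAJB1 was thus positive in footprints and negative in mRNA. Such an r mixes differences between replicates with those between times. In replicate 2, DNAJB1 footprints went from 163 CPM at 60 min to 118 CPM at 360 min. Those of HSPE1 went from 589 to 750 CPM there, and those of HSPH1 from 34.6 to 44.9 CPM. Over all pairs the median r was 0.0887 in RPF (10 pairs) and -0.31 in mRNA (15 pairs). These values describe 6 libraries that all members share, depth and scaling included, and are given with no test.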

How the data were processed

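RPF and mRNA were measured in 12 HEK293T libraries (2 assays, 3 times, 2 replicates). The deposited values are raw counts per Ensembl transcript ID, 1 file per library; a transcript absent from a file was taken as a count of 0. RPF libraries were made from 25-35 nt fragments left by RNase I digestion of the ribosome fractions, per the labels' protocols. The submitters' processing notes name cutadapt 2.8, Bowtie 1.2.3 and STAR 2.7.10a; the genome build, counting rule and treatment of multiply mapping reads are not given in the sources used here.

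Counts were fitted per assay over 6 libraries with edgeR 4.0.16 (R 4.3.3; filterByExpr with a minimum count of 10, TMM scaling, quasi-likelihood test, Benjamini-Hochberg over all transcripts tested, threshold 0.05); the RPF-to-mRNA ratio was the interaction of assay and time. CPM used TMM-scaled totals; a count of 0 allows up to 3 counts. The alternatives were DESeq2 1.42.0, other scalings and filters, 2 times per fit, a replicate block, HSPA1A and HSPA1B summed, and leaving out each library.

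All 10 members are named whatever their values. The members and lists were chosen with earlier results of these data known. Symbols were given with the member list; 0 of 18338 transcript IDs matched the reference tables, so the other chaperone genes, cell type markers and non-member transcripts of like course could not be named and were not analysed here. Promoter sequence came from RefSeq.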

Additional observations from a re-analysis of the deposited data

Results flagged for a closer look

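HSPE1 differed in opposite directions in the 2 assays between 60 and 360 min: both RPF libraries at 360 min lay above both at 60 min, and both mRNA libraries at 360 min lay below both at 60 min. Over all transcripts tested, replicates were apart and higher in RPF for 17.5% and apart and lower in mRNA for 19.6%. The share with both was not counted. The difference between the assays, as the edgeR interaction of assay and time, was 1.5 on the log2 scale (SE 0.63, unadjusted p = 0.0322, adjusted p = 0.948). An unadjusted p under 0.05 was reached by 4.69% of all. Leaving out each library in turn gave 1.05 to 1.85. HSPE1 was flagged from these same libraries, so its interaction is a description and not a further test.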

How the results depend on the processing

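The number of members called was 0 under every alternative run in all 9 comparisons, with 1 exception: without the filter on low counts, 1 member (HSPA1B, adjusted p = 0.0367) was called in mRNA at 360 against 60 min, among 113 of 17953 transcripts. Over all transcripts, the calls per comparison numbered 0 to 113 without the filter, 0 to 60 with DESeq2 (which, among the members tested by edgeR, gave HSPA1B, HSPH1 and DNAJB1 no adjusted p in mRNA at 360 against 0 min, and HSPH1 none in RPF and the ratio at 360 against 60 min), 0 to 7 with the replicate block and 0 under other scalings, the stricter filter, the summed pair and 2 times per fit. Leaving out 1 library gave 0 or 1, except for 75 of 10600 in RPF at 360 against 60 min without replicate 1 at 360 min. The replicate block gave 0 members called in all 9 comparisons and changed no call of a member, while calling 1, 2 and 7 of 9653 transcripts in RPF (60 against 0, 360 against 0 and 360 against 60 min); replicate differences correlated at 0.225 to 0.282 between times in RPF, at -0.37 to 0.29 in mRNA and at -0.27 to 0.00777 between assays, and no label ties a replicate number to a shared culture. Of the single log2 differences, 605 kept their direction and side of the threshold, 30 changed direction and 1 passed the threshold. Outside of leaving out libraries, 2 changed direction: HSPB1 in RPF at 360 against 0 min with library totals alone (-0.0106) and HSPB1 in the ratio at 360 against 0 min with the replicate block (0.0310). Library totals alone moved the median of all transcripts by over 0.1 in 6 comparisons, to -0.12 and -0.0698 (RPF, 360 against 0 and 60 min), -0.19 and -0.28 (mRNA, 360 against 0 and 60 min), and -0.11 and 0.19 (ratio, 60 against 0 and 360 against 60 min).

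Leaving out 1 library at a time changed direction in the following. For RPF at 360 against 0 min the ranges were -1.20 to 0.454 (DNAJB1), -0.251 to 0.654 (HSP90AA1), -0.00182 to 0.292 (HSPB1), -0.113 to 0.703 (HSPE1) and -0.436 to 0.315 (HSPH1). For RPF at 360 against 60 min they were -0.275 to 1.2 (DNAJB1) and -0.0642 to 0.842 (HSP90AA1). For RPF at 60 against 0 min they were -0.499 to 0.0787 (HSP90AA1), -0.455 to 0.0493 (HSPB1) and -0.725 to 0.000106 (HSPH1). For mRNA they were -1.20 to 0.0296 (HSP90AA1) and -0.798 to 0.873 (HSPB1) at 360 against 0 min, -1.62 to 0.0509 (HSPB1) and -0.130 to 1.26 (HSPH1) at 360 against 60 min, and -1.07 to 0.185 (HSPA1B) at 60 against 0 min. For the ratio they were -0.792 to 0.961 (HSPB1) at 360 against 0 min, -1.19 to 0.323 (DNAJB1) and -0.943 to 0.357 (HSPH1) at 360 against 60 min, and -0.352 to 0.241 (HSPE1) at 60 against 0 min. The cause was not tested. Depth limits HSPA1B footprints (2 to 14 counts per library) and HSPA1A (0 to 4).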
